A study of Homo sapiens with 6 samples.

Results

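Integrins are the receptors by which cells hold on to the extracellular matrix, and tensins are adaptor proteins that tie their tails to the cytoskeleton. The mRNA of 10 such genes was followed in QBC-939 cells after an shRNA against BMI1: the alpha subunit genes ITGA2, ITGA3, ITGA6 and ITGAV, the beta subunit genes ITGB1, ITGB4, ITGB5 and ITGB6, and the tensin genes TNS3 and TNS4. They were taken by name from the 27238 rows of the expression table, each matched exactly 1 row, and all 10 had a mean of at least 1 FPKM (fragments counted per length of transcript and corrected for the number mapped in each library). The choice was made with the contrast of these libraries known, so the values of these 10 genes are given as a description and carry no test. QBC-939 is a human cell line that the labels give as cholangiocarcinoma, a cancer of the bile duct. Of the 6 libraries, 3 are controls, whose cells received a scrambled shRNA, and 3 are from cells that received the Bmi1 shRNA, each harvested at 48 h and from a separate transfection, per the labels. The design text also calls the control reagent an siRNA. All 6 libraries come from the same line, and each group used 1 reagent as far as the labels say.

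An integrin is a pair of an alpha and a beta chain, and the pairing sets what it binds. The beta 4 chain pairs only with alpha 6 and, through its long tail, anchors keratin filaments at hemidesmosomes. The beta 1 chain pairs with many alpha chains, among them alpha 2 (collagen) and alpha 3 and alpha 6 (laminins), and signals at focal adhesions. The alpha V chain pairs with beta 5, beta 6 and others, which bind RGD-bearing ligands such as vitronectin, fibronectin and the latent form of TGF-beta. Tensins bind beta tails through a phosphotyrosine-binding domain. Tensin 4 is short and lacks the N-terminal part by which the longer tensins, tensin 3 included, bind actin.

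BMI1, the Polycomb protein targeted by the shRNA, was lower in 3 of 3 treated libraries, at 1.78 ± 0.770 FPKM against 6.02 ± 0.659 FPKM in control (SD, n = 3 each; 29.5% of control; limma, adjusted p = 0.00162). Among its treated libraries replicate 3 kept the most BMI1, at 2.65 FPKM, against 1.49 and 1.19 FPKM in replicates 1 and 2. FPKM summed to between 332910 and 341268 in control libraries and between 352800 and 360371 with Bmi1 shRNA. Neither the labels nor the table give read numbers, and the values therefore carry no counting error. All 7 biliary epithelial markers had a row and reached at least 1 FPKM in some library, with a summed level of 1777 to 1937 FPKM in control and 1517 to 1750 FPKM with Bmi1 shRNA. Of these 7, CDH1, KRT18 and KRT19 were lower in every treated library than in any control library. CDH1, which encodes E-cadherin, was low in both groups and ran from 1.75 to 2.20 FPKM in control and from 0.869 to 1.09 FPKM with Bmi1 shRNA. The means of the keratin genes KRT19 and KRT18 went from 287 to 211 FPKM and from 840 to 707 FPKM. KRT7, also low, had means of 2.74 and 2.80 FPKM and, like EPCAM, SOX9 and KRT8, overlapped between the groups. The 3 fibroblast markers with a row summed to at most 0.445 FPKM and the 2 endothelial ones to at most 0.0360 FPKM. Of 3 leukocyte markers with a row, LYZ, which secretory epithelia also make, held nearly all the signal (1468 and 1532 FPKM). CD14 stood at 0.946 and 0.875 FPKM and CD79A at 0.0703 and 0.0208 FPKM. Of 3 hepatocyte markers with a row, SERPINA1 stood at 156 and 215 FPKM and TTR at 6.11 and 18.7 FPKM. APOA1 was near absent in both groups, at 0.139 and 0.147 FPKM. The sum of the 3 was higher with Bmi1 shRNA (228 to 240 FPKM) than in control (156 to 165 FPKM). The part of these differences in the integrin values was not tested. In a bulk sample, fewer cells that make an mRNA and less of it per cell cannot be told apart.

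With Bmi1 shRNA, TNS4, ITGB4, ITGA3 and ITGB5 were lower in every library than in any control library, and ITGB1, ITGAV and ITGB6 were higher in every library. ITGA6, ITGA2 and TNS3 overlapped between the groups. Thus the groups were apart for 7 of 10 genes, as they were for 65.4% of the 11016 tested rows. Of these genes 4 lay lower, as did 33.1% of rows, and 3 lay higher, as did 32.3%. By the fit over all rows (limma on log2(FPKM + 1), with p adjusted after Benjamini-Hochberg and a threshold of 0.05), the same 7 were called (57.1% of tested rows), those 4 lower (28.5%) and those 3 higher (28.6%). Since the 10 were chosen on this contrast, nothing is read from these counts. The median log2 fold change of the 10 was -0.20, against -0.02 over all tested rows.

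**Figure D1:**
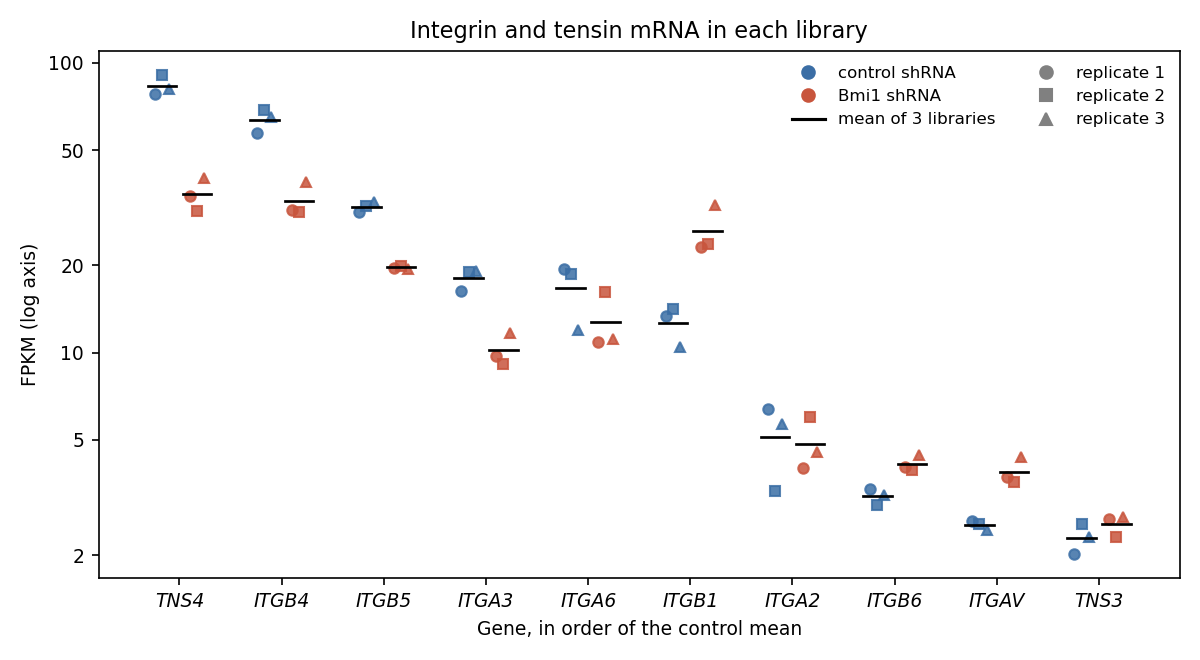
FPKM of the 10 genes on a log axis, in order of the control mean, with 1 marker per library (circle, square and triangle for replicates 1, 2 and 3; blue control, red Bmi1 shRNA) and a black line at the mean of 3 libraries. TNS4, ITGB4, ITGB5 and ITGA3 lie lower with Bmi1 shRNA and ITGB1, ITGB6 and ITGAV higher, each with no overlap.

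TNS4 encodes tensin 4, also known as CTEN, which sits at focal adhesions and has been tied to migration of carcinoma cells. It measured 78.0, 91.0 and 81.0 FPKM in control and 34.8, 30.9 and 40.2 FPKM with Bmi1 shRNA. Every treated library lay below every control library, and replicate 3 was the highest of the treated libraries. The mean went from 83.3 ± 6.78 to 35.3 ± 4.68 FPKM (SD, n = 3 each), 2.36-fold lower, a log2 fold change of -1.22 (standard error 0.11). TNS4 was the most abundant of the 10 genes in both groups, and its rank among all 27238 rows went from 524 to 1188. The gene (ENSG00000131746.12) lies on the reverse strand of chromosome 17 from 40475828 to 40501597 in GRCh38.

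TNS3 encodes tensin 3, one of the long tensins, and was the least abundant of the 10 in both groups. It measured 2.02, 2.56 and 2.30 FPKM in control and 2.66, 2.30 and 2.72 FPKM with Bmi1 shRNA. The groups overlapped, with means of 2.30 ± 0.272 and 2.56 ± 0.225 FPKM (SD, n = 3 each) and a log2 fold change of 0.11 (standard error 0.09). TNS3 (ENSG00000136205.16; chromosome 7, 47275154 to 47582558, reverse strand) is the only other tensin among the 10. The ratio of TNS4 to TNS3 was 38.7, 35.5 and 35.1 in the control libraries and 13.1, 13.4 and 14.8 with Bmi1 shRNA, means of 36.4 ± 1.94 and 13.8 ± 0.915 (SD, n = 3 each). The change in this ratio came with a lower TNS4 level, while TNS3 stayed in the same range.

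ITGB4 encodes the beta 4 chain, the hemidesmosome integrin that binds an epithelial laminin with the chains LAMA3 and LAMB3. It measured 57.5, 68.9 and 64.8 FPKM in control and 30.9, 30.6 and 38.6 FPKM with Bmi1 shRNA. The groups did not overlap, and replicate 3 was again the highest treated library. The mean went from 63.7 ± 5.80 to 33.4 ± 4.56 FPKM (SD, n = 3 each), 1.91-fold lower, a log2 fold change of -0.92 (standard error 0.11). ITGB4 (ENSG00000132470.13) lies on chromosome 17 from 75721328 to 75757818, forward strand. Its span overlaps that of GALK1 on the other strand, without overlap of exons. GALK1, looked at for this overlap, measured 3.03 to 3.85 FPKM in control and 3.14 to 3.93 FPKM with Bmi1 shRNA.

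ITGA6 encodes alpha 6, the partner of beta 4. It measured 19.3, 18.6 and 12.0 FPKM in control and 10.9, 16.2 and 11.1 FPKM with Bmi1 shRNA. Control replicate 3 and treated replicate 2 made the groups overlap. The means were 16.7 ± 4.04 and 12.7 ± 2.99 FPKM (SD, n = 3 each), with a log2 fold change of -0.36 and a standard error of 0.22. ITGB4 exceeded ITGA6 per length of transcript in every library: the ratio of the pair was 2.97 to 5.40 in control and 1.89 to 3.47 with Bmi1 shRNA, and these ranges overlapped. ITGA6 (ENSG00000091409.14; chromosome 2, 172427354 to 172506282, forward strand) shares exonic bases with 3 antisense genes, ITGA6-AS1 among them. No source used here says whether reads were counted by strand, and reads of these genes cannot be told apart from those of ITGA6.

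ITGA3 encodes alpha 3, which joins beta 1 to form another receptor for that laminin. It measured 16.3, 18.9 and 19.1 FPKM in control and 9.72, 9.11 and 11.7 FPKM with Bmi1 shRNA, with no overlap. The mean went from 18.1 ± 1.58 to 10.2 ± 1.35 FPKM (SD, n = 3 each), 1.78-fold lower, a log2 fold change of -0.78 (standard error 0.11). Its gene (ENSG00000005884.17) also lies on chromosome 17, from 50055968 to 50090481 on the forward strand.

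ITGB1 encodes the beta 1 chain, the shared partner of alpha 2, alpha 3 and alpha 6, and moved the other way. It measured 13.4, 14.1 and 10.5 FPKM in control and 23.2, 23.6 and 32.2 FPKM with Bmi1 shRNA. The groups did not overlap, and treated replicate 3 was the highest. The mean went from 12.7 ± 1.92 to 26.3 ± 5.10 FPKM (SD, n = 3 each), 2.08-fold higher, a log2 fold change of 0.996 (standard error 0.16). The gene (ENSG00000150093.18) lies on chromosome 10 from 32900319 to 33005792, reverse strand. The divergent transcript ITGB1-DT, whose exons overlap those of ITGB1 on the other strand, had a row of its own with 1.01 to 1.35 FPKM in control and 1.19 to 1.33 FPKM with Bmi1 shRNA, so its level overlapped between the groups. Because ITGA3 was lower and ITGB1 higher, the ratio of ITGA3 to ITGB1 went from 1.46 ± 0.319 to 0.389 ± 0.0284 (SD, n = 3 each).

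ITGA2, the alpha chain of the collagen receptor, varied most among the control libraries. It measured 6.36, 3.33 and 5.65 FPKM in control, a coefficient of variation of 31.0%, and 3.99, 5.99 and 4.53 FPKM with Bmi1 shRNA. The means of 5.11 ± 1.59 and 4.84 ± 1.04 FPKM (SD, n = 3 each) gave a log2 fold change of -0.05 (standard error 0.22). ITGA2 (ENSG00000164171.10) lies on chromosome 5 from 52989326 to 53094779, forward strand.

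The alpha V family split. ITGB5 measured 30.6, 32.0 and 33.1 FPKM in control and 19.5, 19.9 and 19.5 FPKM with Bmi1 shRNA, the tightest treated values of the 10. It went from 31.9 ± 1.27 to 19.7 ± 0.246 FPKM (SD, n = 3 each), 1.62-fold lower, a log2 fold change of -0.67 (standard error 0.05). Its partner ITGAV measured 2.62, 2.55 and 2.43 FPKM in control and 3.73, 3.57 and 4.34 FPKM with Bmi1 shRNA, a mean 1.53-fold higher (2.54 ± 0.0964 and 3.88 ± 0.409 FPKM; SD, n = 3 each). ITGB6, the beta chain of the epithelial integrin that frees TGF-beta from its latent complex, measured 3.37, 2.98 and 3.23 FPKM in control and 4.02, 3.92 and 4.44 FPKM with Bmi1 shRNA, 1.29-fold higher (3.19 ± 0.202 and 4.13 ± 0.275 FPKM; SD, n = 3 each). On the log2(FPKM + 1) scale, where changes of low genes appear smaller than they are, the fold changes were 0.46 for ITGAV and 0.29 for ITGB6, with standard errors of 0.08 and 0.07. ITGB5 exceeded ITGAV by 12.6 ± 0.976 times in control and 5.10 ± 0.562 times with Bmi1 shRNA (SD, n = 3 each), while the ratio of ITGB6 to ITGAV was 1.26 ± 0.0844 in control and 1.07 ± 0.0396 with Bmi1 shRNA, a smaller shift but also without overlap. In GRCh38, ITGB5 (ENSG00000082781.11) lies on chromosome 3 from 124761948 to 124901418 on the reverse strand. ITGAV (ENSG00000138448.11) lies on chromosome 2 from 186590065 to 186680901 on the forward strand, and ITGB6 (ENSG00000115221.11) from 160099666 to 160200313 of the same chromosome on the reverse strand. ITGAV and ITGB6 each share exonic bases with an overlapping gene that had no row of its own name.

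These differences changed the order of the levels, compared here as deposited and per length of transcript. The trend with GC content described below was not removed from these levels or from the shares that follow. In control the order ran TNS4, ITGB4, ITGB5, ITGA3, ITGA6, ITGB1, ITGA2, ITGB6, ITGAV, TNS3. The ranges of 4 neighbouring pairs overlapped there: ITGA3 with ITGA6, ITGA6 with ITGB1, ITGA2 with ITGB6, and ITGAV with TNS3. Within each control library ITGA6 lay above ITGB1 and ITGA2 above ITGB6. The order of ITGA3 and ITGA6 and that of ITGAV and TNS3 differed between control libraries. With Bmi1 shRNA, ITGB1 stood behind TNS4 and ITGB4 and ahead of ITGB5. The range of TNS4 then overlapped that of ITGB4, as did those of ITGB4 and ITGB1, ITGA6 and ITGA3, ITGA2 and ITGB6, and ITGB6 and ITGAV. Within each treated library, though, TNS4 lay above ITGB4, ITGB4 above ITGB1 and ITGB6 above ITGAV. TNS4 and ITGB4 were closest in treated replicate 2, at 30.9 and 30.6 FPKM. The order of ITGA6 and ITGA3 and that of ITGA2 and ITGB6 differed between treated libraries.

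The makeup of the beta pool shifted from beta 4 towards beta 1. Over the 7 beta subunit rows of the table, ITGB4 held 53.6%, 57.0% and 56.5% of the summed FPKM in the control libraries and 39.2%, 38.6% and 40.0% in the Bmi1 shRNA libraries. ITGB1 held 12.5%, 11.7% and 9.15% in control and 29.3%, 29.8% and 33.4% with Bmi1 shRNA. ITGB5 went from 27.9% ± 1.29 to 23.4% ± 2.75 and ITGB6 from 2.81% ± 0.343 to 4.88% ± 0.252 (SD, n = 3 each), so the shares of all 4 separated the groups. The ratio of ITGB4 to ITGB1 went from 5.12 ± 0.966 to 1.28 ± 0.0695. The summed FPKM of the beta rows was 107, 121 and 115 in control and 79.0, 79.2 and 96.5 with Bmi1 shRNA.

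Among the 15 alpha rows the share of alpha 3 was lower, and those of alpha V and of subunits outside the 10 genes were higher. ITGA3 held 32.5%, 39.0% and 42.4% of the summed FPKM in control and 27.1%, 21.9% and 30.7% with Bmi1 shRNA, and ITGAV went from 5.31% ± 0.0898 to 10.1% ± 1.44 (SD, n = 3 each). Alpha rows outside the 10 genes together went from 11.4% ± 1.31 to 18.1% ± 2.58 (SD, n = 3 each), without overlap. The most abundant of them was ITGAE, with means of 3.57 and 5.37 FPKM, above those of ITGAV (2.54 and 3.88 FPKM). The shares of ITGA6 (34.6% ± 6.83 and 32.8% ± 5.26) and ITGA2 (10.7% ± 3.34 and 12.5% ± 1.71) overlapped. The alpha rows summed to 47.8 ± 2.59 FPKM in control and 38.5 ± 2.92 FPKM with Bmi1 shRNA (SD, n = 3 each). The beta sum was 1.90 to 2.55 times the alpha sum over the 6 libraries, with overlapping groups. These are sums of mRNA levels per length, and receptors at the surface were not measured.

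**Figure D2:**
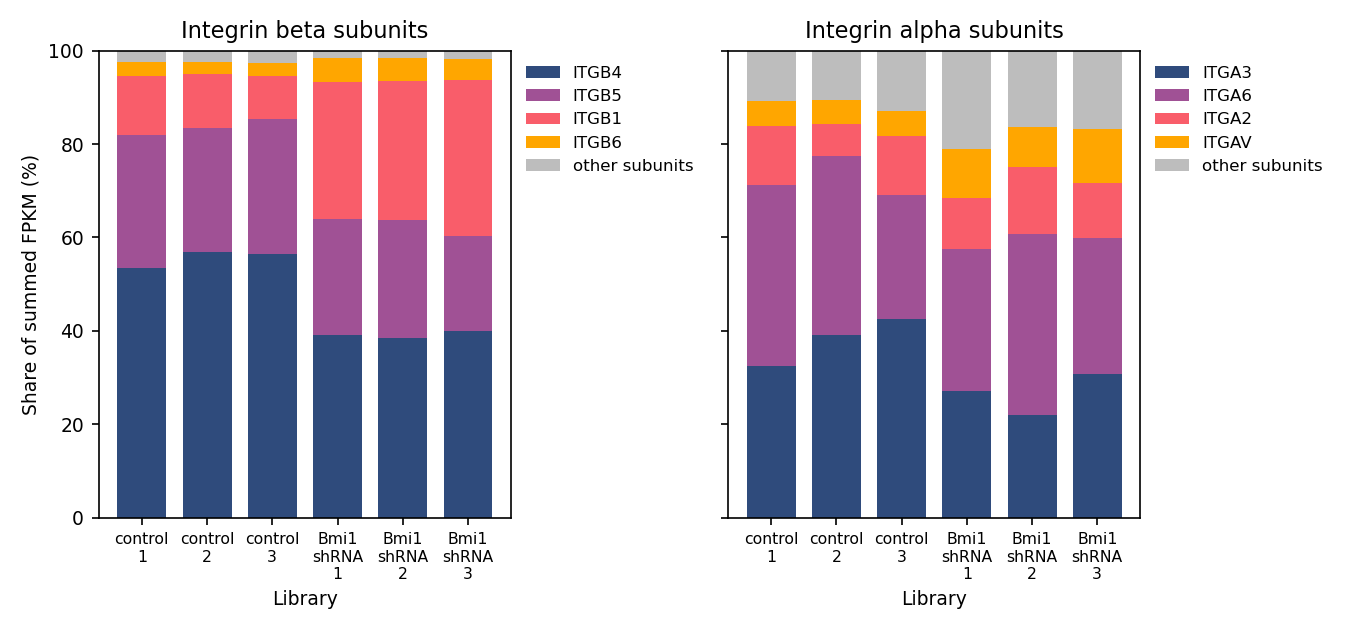
Share of the summed FPKM of all beta subunit rows (left) and all alpha subunit rows (right) held by each gene in each of the 6 libraries, in percent, stacked. ITGB1 takes 9.15% to 12.5% of the beta sum in control and 29.3% to 33.4% with Bmi1 shRNA, and ITGB4 53.6% to 57.0% and 38.6% to 40.0%.

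For the genes whose groups did not overlap, the direction of the difference went with the base composition of the transcripts. The 4 genes that were lower have a GC content of 54.3% to 63.7% in their longest protein-coding transcript (GENCODE 29), and the 3 that were higher have 38.3% to 40.1%, where the median of tested rows was 50.4%. Over the 10225 tested rows with a known transcript, the median log2 fold change was 0.20 among rows at or under that GC content and -0.21 among those above it. When the trend of each library with GC content and length was removed, which also removes any true change that goes with these, the log2 fold change of TNS4 went from -1.22 to -0.89, that of ITGB4 from -0.92 to -0.53, that of ITGA3 from -0.78 to -0.41 and that of ITGB5 from -0.67 to -0.34. ITGB1 went from 0.996 to 0.64 and ITGAV from 0.46 to 0.14. ITGB6 went from 0.29 to -0.013 and so changed sign. The genes that overlapped between the groups did not follow GC content in this way. TNS3, at 55.6% GC, went from 0.11 to 0.54. ITGA6, at 42.9%, went from -0.36 to -0.45 and ITGA2, at 40.2%, from -0.05 to -0.26. The part of the trend in these differences was not tested further.

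**Figure D3:**
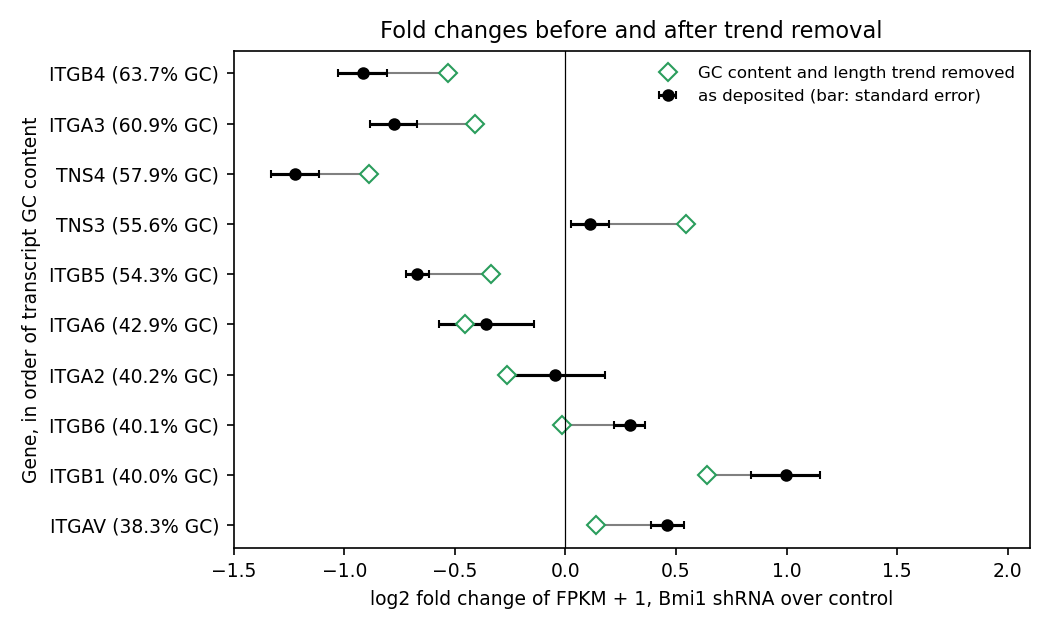
Log2 fold change of FPKM + 1 (Bmi1 shRNA over control) of the 10 genes, ordered by transcript GC content, as deposited (black, with the standard error) and after removal of the trend in GC content and length (green diamonds). TNS4 is the lowest on both scales, at -1.22 and -0.89, ITGB1 the highest, at 0.996 and 0.64, and ITGB6 lies at -0.013 after removal.

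The bases upstream of the transcription starts were looked at for the genes that moved together. RefSeq's promoter table (GRCh38.p14) held 14 starts of 7 of the 10 genes, and none for ITGA3, ITGB4 and TNS4. The 250 bases before each start were searched on both strands for TGANTCA (bound by AP-1), GGAATG (bound by TEAD factors) and GGGCGG (the GC box bound by SP1-type factors). No start held the AP-1 letters, found before 6.57% of all 35116 starts in the table. A TEAD match lay before 1 of them, a start of ITGB1, where 11.9% of all starts have one. GC boxes lay before 6 of the 14 starts, those of ITGA2, ITGA6, ITGB1, ITGB5 and TNS3, against 42.6% of all starts. The sequences of 4 genes are shown to set the 3 that were higher beside ITGB5, which was lower. For ITGB1 and ITGB5 the start with most matches is shown, and for ITGAV, with no match at either start, the one nearest the start of its gene. They read 5′ to 3′ on the strand of the gene and end at the base before the start, with matches in capitals.
ITGB1 (chr10:32958231-32958480, reverse strand): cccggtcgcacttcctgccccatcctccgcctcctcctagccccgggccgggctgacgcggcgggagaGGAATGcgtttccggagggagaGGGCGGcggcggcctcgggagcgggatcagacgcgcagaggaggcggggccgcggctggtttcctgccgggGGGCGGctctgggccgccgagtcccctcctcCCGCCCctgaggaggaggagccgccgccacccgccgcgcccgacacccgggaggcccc
ITGAV (chr2:186589806-186590055, forward strand): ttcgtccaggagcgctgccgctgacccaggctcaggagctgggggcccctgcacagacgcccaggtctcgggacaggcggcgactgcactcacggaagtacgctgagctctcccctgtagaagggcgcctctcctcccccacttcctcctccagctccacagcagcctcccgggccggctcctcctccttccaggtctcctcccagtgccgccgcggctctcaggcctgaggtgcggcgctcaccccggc
ITGB6 (chr2:160200273-160200522, reverse strand): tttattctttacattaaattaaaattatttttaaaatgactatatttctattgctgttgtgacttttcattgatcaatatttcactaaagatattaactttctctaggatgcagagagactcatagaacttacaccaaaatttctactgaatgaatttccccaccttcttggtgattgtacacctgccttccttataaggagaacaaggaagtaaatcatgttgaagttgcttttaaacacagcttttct
ITGB5 (chr3:124887366-124887615, reverse strand): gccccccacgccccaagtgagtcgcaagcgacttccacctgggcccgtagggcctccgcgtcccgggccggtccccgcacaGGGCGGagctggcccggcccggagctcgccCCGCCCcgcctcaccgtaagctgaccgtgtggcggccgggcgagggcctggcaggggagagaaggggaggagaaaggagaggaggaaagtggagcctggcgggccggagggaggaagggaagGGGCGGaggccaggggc
At the starts shown, the 3 genes that were higher do not share a kind of upstream sequence. The bases before ITGB1 are 78.4% G or C with 3 GC boxes, whose first bases lie 160, 89 and 58 bases before the start, and with the TEAD match 182 bases before it. Those before ITGAV are 70.8% G or C with no match, and those before ITGB6 are 30.0% G or C with no match. The other starts of ITGB1 and ITGAV, not shown, have 41.6% and 40.8% G or C with no match. The difference among these genes therefore rests on which starts are shown. The shown start of ITGB5, lower with Bmi1 shRNA, has 75.2% G or C and 3 GC boxes, as many as that of ITGB1. Both starts were picked for having most matches, so no likeness is read from this. The other starts of ITGB5 have 56.4% G or C with no match and 52.8% with 2 GC boxes. A match is a run of letters and no measured binding.

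The genes closest to TNS4 in their pattern over the 6 libraries were sought among 9992 other rows with a unique gene symbol, by the Euclidean distance of log2(FPKM + 1) after the control mean was subtracted. Among the 5 nearest were IRS1 (distance 0.23), an adaptor of the insulin receptor, CLDN2 (0.23), a tight junction protein that forms pores, KCNQ1 (0.27), a potassium channel, and TBC1D2 (0.32), which acts on RAB7. IRS1 went from 8.74 ± 0.644 to 3.55 ± 0.445 FPKM and CLDN2 from 386 ± 6.80 to 165 ± 6.44 FPKM (SD, n = 3 each). Of the other integrin and tensin genes described here, ITGB4 came nearest, in 39th place (0.55), before ITGA3 in 126th (0.79) and ITGB5 in 333rd (1.01). ITGB1 stood in 9766th place (3.86), close to the far end. Among the integrin and tensin genes this order is that of their log2 fold changes, and they were chosen with this contrast known. The 5 nearest genes were picked for their likeness, so no test is given for them.

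Around these 10 genes, 8 lists of integrin biology held 133 other genes, of which 85 were tested. By limma over all rows, 38 of the 85 fell (44.7%, against 28.5% of all tested rows), 9 rose (10.6%, against 28.6%) and 38 did not pass. Their median log2 fold change was -0.25, against -0.02 over all rows. After removal of the trend in GC content and length, 30 of 83 were lower (36.1%, against 20.5% of rows with a known transcript) and 7 higher, where 19.1% of rows were, and the median was -0.07. The lists were chosen with earlier results of these data known, and a list's count is a description of these genes.

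Most other integrin subunits were near silent. Of 14 rows, 12 had a mean under 1 FPKM and were not tested. ITGB7, the leukocyte homing chain, fell (limma, adjusted p = 0.00163), from 2.51 ± 0.281 to 1.01 ± 0.261 FPKM (SD, n = 3 each). ITGAE, a partner of beta 7 that binds E-cadherin, rose from 3.57 ± 0.494 to 5.37 ± 0.709 FPKM (limma, adjusted p = 0.0117). Among those not tested, ITGA1, another collagen-binding partner of beta 1 and named here after its values were seen, had 0.223, 0.339 and 0.255 FPKM in control and 0.696, 0.711 and 0.807 FPKM with Bmi1 shRNA. ITGA5, the alpha chain of the main fibronectin receptor, also named after its values were seen, had means of 0.0402 and 0.0148 FPKM. ITGAM, named likewise, was lower without overlap, with means of 0.973 FPKM in control and 0.322 FPKM with Bmi1 shRNA. Of the other tensins, TNS1 fell from 2.61 ± 0.189 to 1.70 ± 0.184 FPKM (limma, adjusted p = 0.00452). Its log2 fold change was -0.42 as deposited and 0.044 without the trend (limma, adjusted p = 0.483). TNS2 had 4.37 ± 0.411 and 3.53 ± 0.378 FPKM and did not pass (limma, adjusted p = 0.0531), though it did after scaling each library to 1000000 in all, after quantile normalization and without Bmi1 shRNA replicate 3 (0.0287, 0.0248 and 0.0276). Once the trend was removed the sign of TNS2 turned, from -0.25 to 0.12 on the log2 scale, and it did not pass (0.11).

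Ligands were the list with most genes lower. Of 15 tested, 12 fell (80.0%, against 28.5% of all tested rows), 1 rose (6.67%, against 28.6%) and 2 did not pass, with a median log2 fold change of -0.55. After trend removal the median was -0.27, and 7 of 13 were lower (53.8%, against 20.5% of rows) and 2 higher, where 19.1% of rows were. LAMB3, a chain of the epithelial laminin bound by alpha 6 beta 4 and alpha 3 beta 1, fell (limma, adjusted p = 0.000252), from 22.5 ± 1.26 to 10.8 ± 0.505 FPKM (SD, n = 3 each). LAMA3, its alpha chain, named after its values were seen, fell from 4.02 ± 0.197 to 2.79 ± 0.284 FPKM (limma, adjusted p = 0.00437). With the trend removed LAMA3 was not called, and its log2 fold change was -0.01. CCN1, a matricellular ligand of alpha V integrins, fell from 14.7 ± 0.748 to 7.95 ± 0.692 FPKM, and LAMC1, the common gamma chain of laminins, from 18.0 ± 1.26 to 10.1 ± 0.993 FPKM (limma, adjusted p = 0.000514 and 0.00079). FN1, fibronectin, likewise named after its values were seen, fell from 9.96 ± 0.999 to 6.04 ± 0.797 FPKM (limma, adjusted p = 0.00292). The 1 ligand that rose was SPP1, osteopontin, which alpha V integrins bind. It measured 7.14, 5.95 and 5.81 FPKM in control and 19.9, 23.8 and 21.6 FPKM with Bmi1 shRNA, 3.45-fold higher (limma, adjusted p = 0.000243).

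The hemidesmosome, where beta 4 sits, held 4 tested genes besides ITGB4. COL17A1, its transmembrane collagen, fell (limma, adjusted p = 0.000247), from 7.32 ± 0.207 to 3.13 ± 0.231 FPKM (SD, n = 3 each), and PLEC, plectin, which links beta 4 to keratins, fell from 17.3 ± 1.49 to 8.95 ± 1.34 FPKM (limma, adjusted p = 0.00115). Both were also lower with the trend removed, by log2 fold changes of -0.62 and -0.47. CD151, the tetraspanin that holds laminin-binding integrins, rose (limma, adjusted p = 0.00951), with 55.6, 55.2 and 59.0 FPKM in control and an uneven 75.1, 121.7 and 131.4 FPKM with Bmi1 shRNA. ERBIN, the remaining gene, did not pass (limma, adjusted p = 0.0741), but did without Bmi1 shRNA replicate 1 (0.0355). Its log2 fold change was 0.42 as deposited and 0.033 after trend removal (limma, adjusted p = 0.883). DST, also on this list and named after its values were seen, had a mean under 1 FPKM and was not tested. It was higher without overlap, with means of 0.320 FPKM in control and 0.686 FPKM with Bmi1 shRNA.

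**Figure D4:**
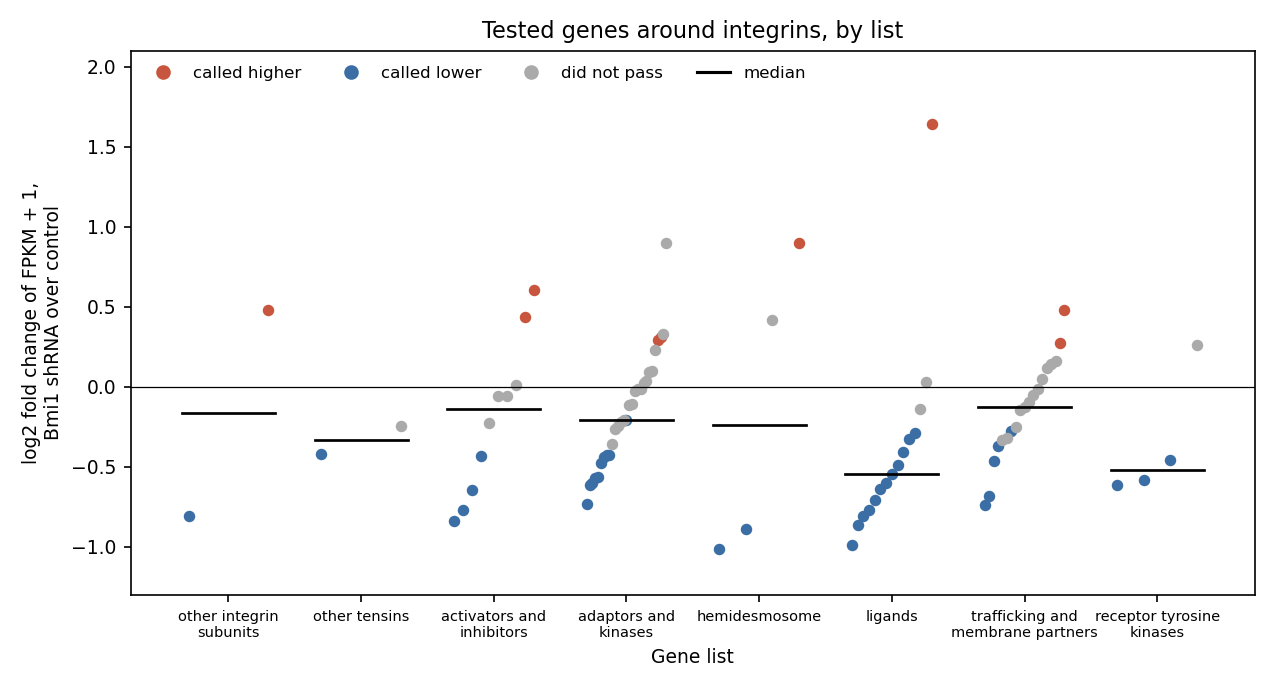
Log2 fold change of FPKM + 1 (Bmi1 shRNA over control) of the 85 tested genes in 8 lists around integrins, 1 point per gene, red called higher, blue called lower, grey not passed by limma, with the median of each list as a line. Of 15 ligands 12 were called lower, and the highest point is SPP1 at 1.64.

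Proteins that switch integrins on or off came next. Of 10 activators and inhibitors 4 fell (40.0%, against 28.5% of all tested rows), 2 rose and 4 did not pass. With the trend removed, 3 of 10 were lower (30.0%, against 20.5% of rows) and 0 higher, where 19.1% of rows were. TLN1, talin, which opens the receptor by binding the beta tail, fell from 13.9 ± 1.11 to 7.34 ± 0.975 FPKM, and FLNA, filamin A, which competes for that tail, from 50.2 ± 3.16 to 29.2 ± 4.47 FPKM (n = 3 each, SD; limma, adjusted p = 0.00101 and 0.002). FERMT3, a kindlin known from blood cells, fell from 2.24 ± 0.169 to 1.41 ± 0.0878 FPKM (limma, adjusted p = 0.0026). FERMT1, a far more abundant kindlin named after its values were seen, overlapped between the groups. It had 39.4 ± 21.8 and 36.4 ± 13.5 FPKM and did not pass (limma, adjusted p = 0.915). RAP1B and RAP1A, the small GTPases that recruit talin, rose by 0.61 and 0.44 on the log2 scale (limma, adjusted p = 0.00366 and 0.00691), but by 0.31 and 0.05 with the trend removed, when neither was called (0.105 and 0.681). Focal adhesion adaptors and kinases link integrins to actin. Of 29 tested, 10 fell (34.5%, near the 28.5% of all tested rows), 2 rose (6.90%, against 28.6%) and 17 did not pass. Without the trend 9 of 29 were lower (31.0%, against 20.5% of rows) and 2 higher, where 19.1% of rows were. CRKL, an adaptor, fell from 37.5 ± 1.57 to 24.2 ± 1.44 FPKM, VCL, vinculin, from 10.4 ± 0.283 to 5.89 ± 0.745 FPKM, and the kinase SRC from 29.7 ± 1.65 to 19.7 ± 1.18 FPKM (limma, adjusted p = 0.000651, 0.000942 and 0.000986). PTK2, focal adhesion kinase, named after its values were seen, had 4.08 ± 0.0617 and 4.44 ± 0.483 FPKM and did not pass. GIT1 and ENAH rose by 0.31 and 0.29 (limma, adjusted p = 0.0307 and 0.0364). GIT1 was no longer called when Bmi1 shRNA replicate 1 or 3 was left out (up to 0.0843). ENAH was no longer called when Bmi1 shRNA replicate 2 or 3, or control replicate 1 or 3, was left out (up to 0.109). Both calls also ended with the replicate block (0.0539 and 0.0711), with no filter on low values (0.0693 and 0.0847) and after scaling each library to 1000000 in all (0.1 and 0.0959), and that of ENAH with the trend removed (0.201).

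Of 19 trafficking and membrane partners 5 fell, 2 rose (10.5%, against 28.6% of all tested rows) and 12 did not pass. The share that fell, 26.3%, was near the 28.5% of all tested rows. Once the trend was removed, 6 of 19 were lower (31.6%, against 20.5% of rows) and 1 higher, where 19.1% of rows were. SLC3A2, the CD98 heavy chain that binds beta 1, fell from 115 ± 2.53 to 68.7 ± 2.87 FPKM, RAB11FIP1, the recycling adaptor also called RCP, from 3.16 ± 0.0493 to 1.59 ± 0.0458 FPKM, and ARF6, a GTPase of beta 1 recycling, from 30.8 ± 0.733 to 23.6 ± 1.05 FPKM (n = 3 each, SD; limma, adjusted p = 0.00028, 0.000333 and 0.00205). RAB11A rose from 26.9 ± 1.02 to 37.9 ± 2.39 FPKM (limma, adjusted p = 0.00147), with a log2 fold change of 0.06 and no call once the trend was removed (0.484). HAX1, which binds the tail of beta 6, rose by 0.27 (limma, adjusted p = 0.0333). That call was lost when Bmi1 shRNA replicate 1 or 2, or control replicate 2 or 3, was left out (up to 0.0931), with no filter (0.0744), after scaling each library to 1000000 in all (0.0917), with quantile normalization (0.115) and with the trend removed (0.207). Of 4 receptor tyrosine kinases that work with tensins and integrins 3 fell, where 28.5% of all tested rows did. After trend removal 2 of 4 were lower, where 20.5% of rows were, with a median of -0.15. EGFR fell from 2.55 ± 0.206 to 1.33 ± 0.216 FPKM, ERBB2 from 6.36 ± 0.337 to 3.93 ± 0.453 FPKM and ERBB3 from 9.93 ± 0.598 to 7.03 ± 1.20 FPKM (limma, adjusted p = 0.00194, 0.00175 and 0.0166). ERBB3 was no longer called when control replicate 2 was left out (0.0556) and with the trend removed (0.469). MET, the remaining kinase, whose protein tensin 4 binds, did not pass, with 15.1, 15.8 and 14.7 FPKM in control and 16.6, 16.6 and 22.4 FPKM with Bmi1 shRNA (limma, adjusted p = 0.104).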

How the data were processed

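Poly(A) RNA was sequenced, per the labels' protocols, which also name adipose material that none of these samples is. The deposited values are FPKM per gene name for 6 libraries in 1 table. The submitters' processing notes name Bowtie 0.12.2, HISAT2 2.0 and StringTie 1.3.0 with no role, and the mouse build mm8, though 19870 of 27238 row names are human gene symbols. The columns are headed Sc and Sh with a number, read here as scrambled (control) and Bmi1 shRNA, numbered like the sample titles. No source used here gives read depth.

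The 11016 rows whose mean reached 1 FPKM were tested with limma 3.58.1 (R 4.3.3). Values entered as log2(FPKM + 1), that is with a pseudocount of 1, with group as the sole term, a variance trend and Benjamini-Hochberg adjustment; calls are at 0.05. The test was tested on simulated data. The 10 genes and the 8 lists were chosen with earlier results of these data known. Named beside them are BMI1, other subunits and tensins that passed the filter, up to 3 genes with the smallest p per direction and list, and the 5 nearest to TNS4, of which 1 is not reported here. Rows with a repeated name (3646) are not named. Positions, GC content and length come from GENCODE 29 (GRCh38), known for 92.8% of tested rows, and upstream sequences from RefSeq. The trend of each library with GC content and log2 length was fitted with natural splines of 5 degrees of freedom each and subtracted. Alternatives covered the pseudocount, filter, scaling, variance prior, replicate block, this trend and each library left out; those for shares and ratios were added after seeing the data.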

Additional observations from a re-analysis of the deposited data

How the results depend on the processing

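Only 3 libraries per group and an unknown read depth limit these values. With a filter at a mean of 5 FPKM, 3478 of 5641 rows were called, against 6295 of 11016, so the counts were over fewer rows. Of the list genes left, 25 were lower and 5 higher. The 6 integrin and tensin genes left kept the same log2 fold changes. Their median was -0.72, as the genes with lower levels were no longer in it. Without the trend in GC content and length 4057 of 10225 rows were called, and ITGB6 (-0.013), TNS1 (0.044) and TNS2 (0.12, not called before or after) changed sign. The cause was not tested. The other settings tried kept these counts within 1.5 times. Leaving out 1 library gave 5226 to 6122 called genes, 33 to 42 list genes lower and 7 to 9 higher, and a median for the 10 genes between -0.36 and -0.09. In these 6 fits the log2 fold change ran from -1.32 to -1.13 for TNS4, -1.02 to -0.86 for ITGB4 and 0.85 to 1.08 for ITGB1. These signs could not change, because the groups did not overlap. The same holds for the shares of ITGB1, ITGB4, ITGA3 and ITGAV and for the ratio of TNS4 to TNS3. ITGA2 ranged from -0.28 to 0.11. Libraries sharing a replicate number did not deviate together (r of 0.004, -0.079 and -0.023 across genes). With the replicate block 5658 genes were called, the calls of GIT1 (limma, adjusted p = 0.0539) and ENAH (0.0711) ended, and no other call of a named gene changed. FERMT1 was not followed over these settings.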
